A study of Mus musculus with 49 samples.

Results

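The genes described here are 40 genes of the cell division cycle, chosen by symbol as a list and found among the 55487 genes of the expression table. By role they comprise 11 genes of DNA replication and nucleotide supply (Mcm2, Mcm3, Mcm4, Mcm5, Mcm6, Mcm7, Pcna, Rrm1, Rrm2, Tyms, Tk1), 6 G1/S cyclins and transcription factors (Ccne1, Ccne2, E2f1, E2f8, Mybl2, Foxm1), 8 G2/M cyclins and kinases (Ccna2, Ccnb1, Ccnb2, Cdk1, Cdc25c, Plk1, Aurka, Aurkb), 4 genes of the spindle checkpoint and the anaphase-promoting complex (Bub1, Bub1b, Cdc20, Ube2c) and 11 genes of chromosomes, kinetochores, spindle and cytokinesis (Mki67, Top2a, Birc5, Cenpa, Cenpe, Cenpf, Kif11, Kif20a, Kif23, Tpx2, Nusap1). RNA was sequenced from 6 HuHER2 transgenic mice with a palpable mammary tumor, palpated from an age of 7 months. All animals, controls included, carried the transgene, whose promoter is not given in the sources used here. 3 mice received phosphate-buffered saline (PBS), and 3 received 1 intravenous injection of BP, an iron oxide nanoparticle known from the labels by that code alone, at 5 mg Fe per mouse. Organs were taken after 7 days per the design text, whereas a treatment protocol label gives 31 days. The 36 bulk libraries hold the tumor, lung, liver, spleen, lymph node and bone marrow of each mouse. From BP mice, a second section of every organ but the lung, where no nanoparticles were detected, was dissociated and the cells holding nanoparticles were drawn out magnetically. They are called nanoparticle-associated cells and were sequenced in 13 libraries: 3 for marrow, 3 for spleen, 3 for liver, 3 for tumor and 1 for lymph node (BP mouse 2). Bulk and nanoparticle-associated libraries of equal number come from the same BP mouse. The bulk section was neither dissociated nor sorted, so handling and the choice of cells cannot be told apart in that comparison.

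A dividing cell copies its DNA in S phase and separates the copies in mitosis. Late in G1, E2F transcription factors and cyclin E switch on replication: the Mcm proteins form the helicase that opens the DNA, Pcna is the clamp that holds the polymerase, and Rrm1, Rrm2, Tyms and Tk1 supply nucleotides. Later, Mybl2 (B-Myb) and Foxm1 drive the genes of G2 and mitosis. Both are counted below with the G1/S cyclins and transcription factors, called G1/S genes for short. Cyclin B with Cdk1 then starts mitosis, polo and aurora kinases build the spindle, kinetochore proteins bind chromosomes to it, and Cdc20 and Ube2c act with the anaphase-promoting complex to end it. In the adult mouse, bone marrow is the main site of dividing blood cell precursors, and the spleen also makes red cells. Most cells of adult lung and liver divide rarely.

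Promoter motif letters were spread unevenly between the replication genes and the mitotic genes, and 6 stretches are shown for that reason. RefSeq windows (GRCm38.p6, 250 bases before the start of the gene to 50 after) were found for 32 of the 40 genes, and none was matched for Mcm4, Ccne2, Foxm1, Ccna2, Cdc25c, Aurkb, Kif20a and Tpx2. Each line gives the 170 bases before the start, read 5′ to 3′ on the strand of the gene. Capitals mark any of 3 motifs: the cell cycle homology region (CHR, TTTGAA or TTCAAA), the CCAAT box (CCAAT or ATTGG), and E2F letters (TTTGGCGC, TTTCCCGC, TTTCGCGC, TTTGCCGC or their reverse complements). Mcm5 lies at chr8:75109339-75109508 (plus strand), Mcm6 at chr1:128359706-128359875 (minus), Cdk1 at chr10:69352913-69353082 (minus), Cdc20 at chr4:118437344-118437513 (minus), Top2a at chr11:99024190-99024359 (minus) and Ube2c at chr2:164769759-164769928 (plus).
Mcm5: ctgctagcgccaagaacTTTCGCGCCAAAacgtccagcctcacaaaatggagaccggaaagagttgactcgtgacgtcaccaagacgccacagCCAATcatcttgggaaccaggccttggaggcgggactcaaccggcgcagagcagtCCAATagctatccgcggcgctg
Mcm6: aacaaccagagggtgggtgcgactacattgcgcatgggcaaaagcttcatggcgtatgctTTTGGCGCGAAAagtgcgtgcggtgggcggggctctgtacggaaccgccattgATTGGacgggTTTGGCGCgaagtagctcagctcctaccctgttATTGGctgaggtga
Cdk1: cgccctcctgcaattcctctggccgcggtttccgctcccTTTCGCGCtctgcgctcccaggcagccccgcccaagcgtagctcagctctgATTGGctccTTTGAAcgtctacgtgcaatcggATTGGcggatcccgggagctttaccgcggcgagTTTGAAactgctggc
Cdc20: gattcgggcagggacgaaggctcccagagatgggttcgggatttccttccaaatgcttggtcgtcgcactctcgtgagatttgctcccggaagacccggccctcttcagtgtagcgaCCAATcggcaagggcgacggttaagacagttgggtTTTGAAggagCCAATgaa
Top2a: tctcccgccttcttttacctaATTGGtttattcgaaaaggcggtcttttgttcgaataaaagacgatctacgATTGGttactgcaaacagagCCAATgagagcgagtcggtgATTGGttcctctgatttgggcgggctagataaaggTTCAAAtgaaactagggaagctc
Ube2c: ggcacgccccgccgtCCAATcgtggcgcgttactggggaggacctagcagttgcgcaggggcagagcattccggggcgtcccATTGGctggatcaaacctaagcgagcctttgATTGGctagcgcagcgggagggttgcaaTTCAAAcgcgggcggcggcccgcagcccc
In these stretches Mcm5 and Mcm6 carried E2F letters and no CHR letters, and in both genes E2F letters of the 2 strands share bases. Cdc20, Top2a and Ube2c carried CHR and CCAAT letters and no E2F letters, and Cdk1 carried all 3. Over the full 300-base windows, CHR letters stood in 13 of 18 (72.2%) G2/M, checkpoint and chromosome genes and in 2 of 14 (14.3%) replication and G1/S genes, beside 20.2% of all 27025 genes with a window. CCAAT letters stood in 16 of 18 (88.9%) and 9 of 14 (64.3%), beside 41.1% of all genes. E2F letters stood in 1 of 18 (5.56%) and 4 of 14 (28.6%), beside 2.6% of all genes. These matches describe letters in a window and show no binding.

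Library totals ran from 9362264 to 19734849 expected counts. Levels are given in CPM, counts scaled to equal depth with trimmed-mean (TMM) factors over all 49 libraries, on which a count of 0 allows up to 0.11 to 0.727 CPM. CPM is not divided by gene length, so levels are compared between libraries and not between genes. Liver libraries stood apart in scaling, with TMM factors of 0.574 to 0.658 in bulk and 0.309 to 0.513 in nanoparticle-associated libraries against 0.855 to 1.54 elsewhere. Mitochondrially encoded RNA took 48.2 to 57.2% of nanoparticle-associated liver libraries and 5.67 to 7.06% of BP bulk liver. Hepatocyte, lung epithelial and mammary epithelial markers were high in liver, lung and tumor, and T and B cell markers were present in lymph node. Adipocyte markers summed to 1627, 11940 and 5100 CPM in the PBS lymph nodes of mice 1, 2 and 3, and mammary epithelial markers to 529, 609 and 1075 CPM. BP tumors of mice 1, 2 and 3 held 9747, 974 and 202 CPM of adipocyte markers. Of the 40 genes, 13 share exonic bases with another gene and 7 share over 10% of theirs (Mcm7, Ccne2, E2f8, Ccna2, Cdc25c, Ube2c and Kif20a). The strand setting of the counting is not given in the sources used here. Reads in the shared bases can therefore not be assigned to these genes or to their partners with certainty.

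Marrow held the highest mean level of each of the 40 genes among the PBS organs. Their summed level in mice 1, 2 and 3 was 9055, 9358 and 9939 CPM in marrow, 1650, 3474 and 3925 in spleen, 1183, 2781 and 1498 in tumor, 798, 460.4 and 977 in lymph node, 408, 300.5 and 823 in liver and 263, 441 and 398 in lung. The 3 marrow values lay above every other bulk PBS value, whereas spleen and tumor overlapped, lymph node and tumor did not, and liver and lung overlapped. The organ with the second highest mean was spleen for 30 genes, tumor for 9 and liver for 1, Tk1. The lowest mean was in liver for 22 genes, in lung for 17 and in lymph node for 1. In bulk tissue, fewer dividing cells and less RNA per dividing cell cannot be told apart.

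**Figure D1:**
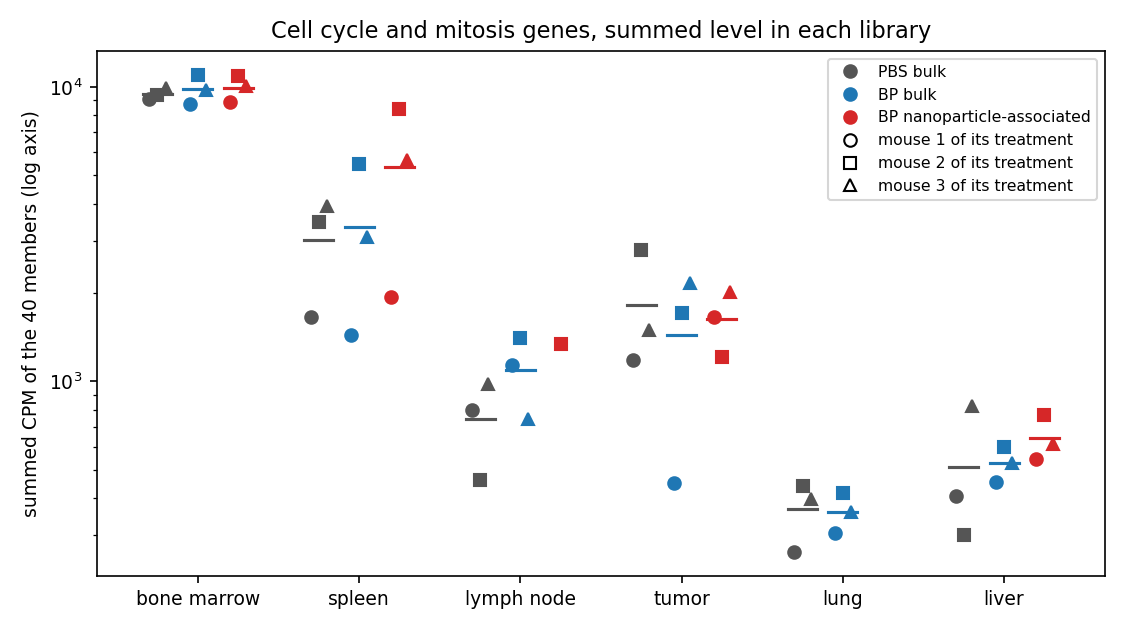
Summed level of the 40 genes in each library, in CPM on a log axis, by organ; colour gives PBS bulk, BP bulk or nanoparticle-associated cells, marker shape gives the mouse and the bar gives the group mean. PBS marrow lies between 9055 and 9939 CPM, while PBS spleen spans 1650 to 3925 CPM and PBS lung 263 to 441 CPM.

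Mki67, the antigen that marks cycling cells (chr7:135689784-135716361, minus strand of GRCm38), showed the gradient in single libraries. It measured 1682, 1623 and 1590 CPM in PBS marrow of mice 1, 2 and 3, 266, 588 and 574 in spleen and 77.3, 240.5 and 129 in tumor. Lymph node gave 49.9, 22.8 and 69 CPM, lung 9.17, 20.7 and 16.7 and liver 5.75, 8.39 and 19.3. Marrow was above every library of the other organs, and lung and liver overlapped. The log2 fold change of marrow over lung was 6.67 ± 0.62 (SE, n = 3 and 3; adjusted p = 1.79e-07, edgeR quasi-likelihood test over all genes) and over liver 7.11 ± 0.64 (adjusted p = 5.52e-08).

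The 15 pairs of PBS organs were tested over 17696 genes in 1 fit; pairs that share an organ share its libraries. Marrow was higher than lymph node and than lung for 40 of 40 genes, while 21.1% and 26.7% of all genes were called higher in those pairs. Against liver it was higher for 39 (32.5% of all genes), against tumor for 36 (25.6%) and against spleen for 33 (14.8%), and none of the 40 was lower in marrow in any of the 5 pairs. The median log2 change of the 40 genes was 1.74 against spleen, 2.16 against tumor, 3.94 against lymph node, 5.12 against lung and 5.28 against liver, beside medians of all genes between -0.21 and 0.1. Against spleen the call was missed by Pcna, Ccne2, Cdk1, Birc5, Nusap1, Ube2c and Ccnb1, and the log2 change of Pcna was 0.68 ± 0.37 (adjusted p = 0.176). Without mouse 1, whose spleen was lowest, 21 of the 40 genes were called in that pair. Against tumor the genes not called were Cdc25c, Kif20a, Cdk1 and Cdc20. Fitted with mouse as a block, 37 genes were higher in marrow than in spleen and 40 than in tumor. The share of all genes in that fit is not given here, so the rise is not read as particular to the 40 genes.

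E2f8, an atypical E2F that represses E2F targets late in S phase (chr7:48866429-48881596, minus strand), was the most marrow-rich member against lymph node, tumor and lung. PBS marrow held 175, 179 and 178 CPM in mice 1, 2 and 3, spleen 22.4, 26.1 and 37.9, lymph node 2.47, 0.955 and 3.56 and lung 1.21, 1.34 and 0.942. No library of another organ came near the marrow values. Its log2 change was 2.58 ± 0.33 against spleen (adjusted p = 2.99e-05), 6.25 ± 0.40 against lymph node (adjusted p = 1.3e-08) and 7.18 ± 0.42 against lung (adjusted p = 2.42e-09). Mybl2, the B-Myb factor, averaged 113 ± 4.58 CPM in marrow and 0.277 ± 0.142 in liver (SD, n = 3). The liver mean rests on 1, 2 and 4 counts in mice 1, 2 and 3 and lies below the level of 3 counts in each library, so no fold is given; the difference was called (adjusted p = 1.66e-09).

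Spleen and tumor were near each other, and no larger share of the 40 genes than of all genes was called higher in spleen. Of the 40 genes, 9 were higher in PBS spleen than in tumor (26.1% of all genes) and none was lower, with a median log2 change of 0.43. Cyclin E, which drives entry into S phase, led the list: Ccne2 by 2.19 ± 0.40 (adjusted p = 0.000219) and Ccne1 by 2.12 ± 0.43 (adjusted p = 0.000527), followed by E2f8 at 1.76 ± 0.33 (adjusted p = 0.000277). Ccne1 measured 19.9, 38.5 and 58.2 CPM in spleen and 9.24, 11.4 and 5.09 in tumor, and the groups did not overlap. Members that pointed to tumor were not called, among them Cdc25c, the phosphatase that activates Cdk1, at -0.90 ± 0.51 (adjusted p = 0.15), Foxm1 at -0.81 ± 0.41 (adjusted p = 0.103) and Cdc20 at -0.81 ± 0.66 (adjusted p = 0.322). Without mouse 3 the count was 3 of 40.

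The lymph node held little of these genes beside spleen or tumor. Spleen was higher than lymph node for 34 of 40 genes (9.09% of all genes; median log2 change 2.19), and for 14 genes without mouse 2 and 21 without mouse 3. Tumor was higher than lymph node for 31 of 40 (24% of all genes; median log2 change of lymph node over tumor -1.88), and for 7 without mouse 2. The lymph node of PBS mouse 2 gave the lowest level for 39 of the 40 genes (46% of all genes were lowest in it). It also held the most adipocyte marker RNA of the 3, and 55990, 256800 and 74890 CPM of mitochondrially encoded RNA in mice 1, 2 and 3; their part in the low levels was not tested. Against tumor, Cdc25c differed by -3.12 ± 0.57 (adjusted p = 0.000303) and Ube2c by -2.64 ± 0.68 (adjusted p = 0.00452), the latter -1.84 (adjusted p = 0.0641) without mouse 2.

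Lung, with liver, held the lowest levels. Spleen and tumor exceeded lung for 39 and 37 of 40 genes (23.6% and 22.7% of all genes). Lymph node exceeded lung for 12 genes (17.8% of all genes), led by Ccne1 at 2.37 ± 0.50 (adjusted p = 0.00129) and Top2a, the topoisomerase that untangles chromosomes, at 1.96 ± 0.48 (adjusted p = 0.0037). That count was 4 without mouse 1 and 3 without mouse 3. E2f1, an activator of S-phase genes, went the other way: it measured 5.48, 2.67 and 7.41 CPM in PBS lymph nodes and 7.92, 14.7 and 13.3 in PBS lungs, with lung above lymph node in all 3 mice. Its log2 change of lymph node over lung was -1.27 ± 0.43 (adjusted p = 0.0272; 21.6% of all genes were called lower), and -0.858 (adjusted p = 0.242) without mouse 2.

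In liver the level of the 40 genes was concentrated in the replication genes. These 11 genes made up 77.2 ± 6.83% of the summed level in PBS liver (SD, n = 3), 63.3 ± 4.49% in lung, 59.7 ± 5.21% in lymph node, 40.8 ± 0.166% in spleen, 40.1 ± 4.23% in tumor and 34.4 ± 1.63% in marrow. Tk1, the thymidine kinase of the salvage pathway (chr11:117815526-117826092, minus strand), held 109.9, 66.1 and 89.6 CPM in PBS liver of mice 1, 2 and 3 and 126, 134 and 151 in marrow, 43.8, 58.6 and 76.8 in spleen and 7.3, 7.9 and 6.38 in lung. Liver was above lung in every mouse and below marrow in every mouse. The log2 change of lung over liver was -3.65 ± 0.28 (adjusted p = 1.48e-08) and of lymph node over liver -2.84 ± 0.27 (adjusted p = 1.72e-07). E2f8 was likewise higher in liver than in lung, by -2.89 ± 0.38 as lung over liver (adjusted p = 7.2e-06).

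Some liver results depended on scaling, among them directions of Tk1. Tk1 was called lower in spleen than in liver at -0.60 ± 0.25 (adjusted p = 0.0451) and lower in tumor at -0.89 ± 0.25 (adjusted p = 0.00701). With library totals alone the same changes were 0.501 (adjusted p = 0.122) and 0.157 (adjusted p = 0.64), a scaling that moved the median of all genes by 1.12 and 1.02. The spleen call was also lost with mouse as a block (adjusted p = 0.0575), without filtering (adjusted p = 0.0876) and on leaving out mouse 1, 2 or 3 (adjusted p = 0.56, 0.0883 and 0.063), and the tumor call without mouse 3 (-0.691, adjusted p = 0.102). Marrow over liver was 0.55 ± 0.25 for Tk1 (adjusted p = 0.0637), and 1.41 (adjusted p = 0.000349) with library totals. Spleen exceeded liver for 39 of 40 genes and was lower for Tk1 (35.5% and 28.3% of all genes), tumor for 32, and was lower for Tk1 (29.1% and 24.2%), and lymph node for 15, with 3 lower (32.4% and 25.5%). Between lung and liver, 2 genes were higher in lung (34.7% of all genes), Mybl2 (adjusted p = 0.000378, with liver at those low counts) and Foxm1 at 1.20 ± 0.48 (adjusted p = 0.0426). The 6 genes higher in liver (25.4%) were Tk1, E2f8, Ccne1, Ccne2, Mcm6 and Mcm2. With library totals more of the 40 genes were higher in lung and fewer in liver. Of all 17696 genes, 10966 were then higher in lung and 1934 higher in liver. The Foxm1 call was lost without mouse 1 (0.976, adjusted p = 0.128) or mouse 2 (0.912, adjusted p = 0.159). PBS liver 3 was the highest of its group for 39 of the 40 genes (38.7% of all genes), and without mouse 3 the lung and liver split was 6 higher and 2 lower.

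In spleen the 40 genes ranked the mice alike, and the mice lay far apart. Liver and marrow were less uniform: the lowest of PBS mice 1, 2 and 3 was mouse 1 for 20 genes and mouse 2 for 20 in liver, and mouse 1, 2 or 3 for 26, 11 and 3 genes in marrow. Some groups of other organs came near the spleen. PBS lymph node was lowest in mouse 2 for 39 genes (46% of all genes) and BP tumor in mouse 1 for 39 (40.6%). PBS tumor was lowest in mouse 1 for 30 (41.2%). All 40 were lowest in mouse 1 in PBS spleen, in BP spleen and in nanoparticle-associated spleen cells, where 47.5%, 35.3% and 30.7% of all genes were lowest in that mouse. Mouse 1 of the PBS group and mouse 1 of the BP group are different animals. The highest level divided by the lowest had a median over the 40 genes of 2.48, 3.76 and 4.39 in those groups, against 1.15, 1.26 and 1.28 in the same groups of marrow. Rrm2, the regulated subunit of ribonucleotide reductase, measured 55.7, 107 and 135 CPM in PBS spleen of mice 1, 2 and 3 and 39.5, 203 and 103 in BP spleen. Cdc20 measured 14.3, 29.5 and 43.4 CPM in PBS and 15.5, 57.2 and 28.5 CPM in BP spleen. In both genes mouse 1 was lowest in each group, and the PBS and BP ranges overlapped.

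Erythroid markers ranked the spleens in the same order. The 13 markers of erythroid precursors, all above 0 in every spleen library, summed to 16670, 78770 and 105300 CPM in PBS spleens of mice 1, 2 and 3, to 20850, 98100 and 43430 CPM in BP spleens and to 14650, 88410 and 58560 CPM in nanoparticle-associated spleen cells. The summed level of the 40 genes was 1650, 3474 and 3925 CPM in PBS spleens, 1436, 5470 and 3100 in BP spleens and 1936, 8427 and 5629 in nanoparticle-associated cells, so that within each group the 3 libraries ranked alike on both sums. Mature B cell markers summed to 3216, 3390 and 3394 CPM in PBS spleens, a narrow range in the same order. Lungs also ranked alike on the erythroid sum and the sum of the 40 genes. Their erythroid markers summed to 2124, 48100 and 32190 CPM in PBS and 14860, 47070 and 17380 CPM in BP mice. PBS lymph nodes, at 841, 1841 and 1110 CPM of erythroid markers, did not rank alike. The part of erythroid cells in these levels was not tested.

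**Figure D2:**
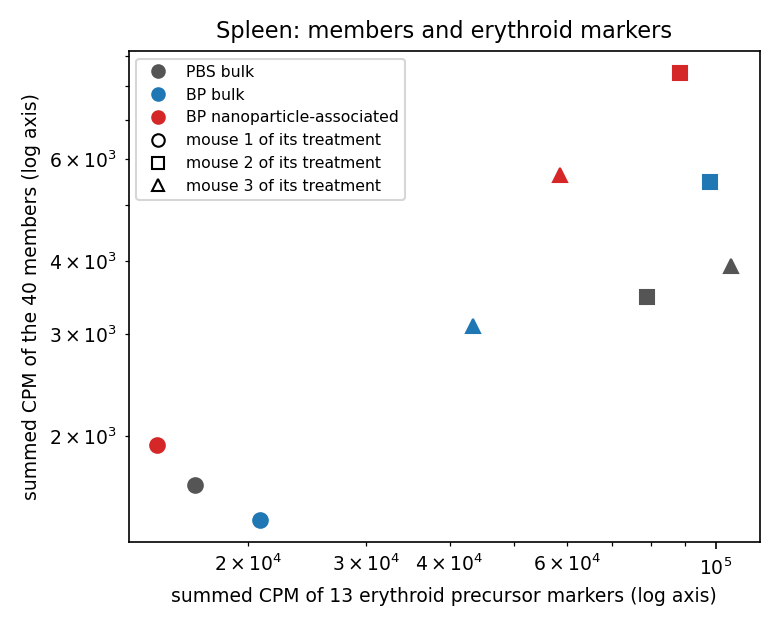
Summed level of 13 erythroid precursor markers (x) against the summed level of the 40 genes (y) in the 9 spleen libraries, both in CPM on log axes. Mouse 1 has the lowest value on both axes in each of the 3 groups, and nanoparticle-associated libraries of mice 2 and 3 have the highest sums of the 40 genes at 8427 and 5629 CPM.

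Tumors differed as widely between mice. The 40 genes summed to 1183, 2781 and 1498 CPM in PBS tumors and 450.5, 1699 and 2163 CPM in BP tumors. PBS tumor 2 was highest for all 40 genes (31.6% of all genes), and BP tumor 1 was lowest for 39 (40.6% of all genes). Cdk1 measured 27.7, 82.3 and 52.4 CPM in PBS tumors and 13.4, 73.2 and 66.9 CPM in BP tumors. BP tumor 1 was also the library with 9747 CPM of adipocyte markers, and its mammary epithelial markers stood at 11390, 9442 and 15400 CPM in BP mice 1, 2 and 3. Mitochondrially encoded RNA took 19.5% of BP tumor 1, 8.33 and 3.97% of the other BP tumors and 3.06 to 4.06% of PBS tumors. The part of these in the low levels was not tested.

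BP treatment was followed by no called change of any of the 40 genes in bulk tissue. In marrow, spleen, lymph node and tumor all 40 were tested, in lung 39 (not Cdc25c) and in liver 36 (not Mybl2, Cdc25c, Plk1 and Bub1). edgeR called 0 of them in each organ and DESeq2 also 0, while at an unadjusted p under 0.05 edgeR counted 1 in marrow, 3 in lymph node and 0 in the others. Of all genes 0% were called in 5 organs and 0.0235% were called higher in liver, so few genes of any kind were called. The median log2 change of the 40 genes, BP over PBS, was 0.067 in marrow, 0.13 in spleen, 0.52 in lymph node, -0.46 in tumor, -0.11 in lung and 0.15 in liver, while the median of all genes lay between -0.049 and 0.0054. The 3 PBS and 3 BP values did not overlap for 1 of the 40 genes in marrow, higher (1.88% of all genes were higher without overlap and 3.99% lower), 2 in lymph node, higher (4.44% and 2.55%), and 2 in lung, lower (2.14% and 2.25%). In spleen (3.16% and 1.52%), tumor (6.56% and 3.87%) and liver (3.89% and 4.7%) there were 0.

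The lymph node and the tumor held the widest shifts, in opposite directions and within the spread of the mice. All 40 genes had a positive change in lymph node, where Rrm2 measured 15.8, 6.88 and 16.4 CPM in PBS and 27.8, 32.7 and 16.2 CPM in BP mice 1, 2 and 3. These groups overlapped in 1 library of each, and the log2 change was 0.95 ± 0.39 (adjusted p = 0.866). Birc5, the survivin subunit of the chromosomal passenger complex, had a log2 change of 1.00 ± 0.56 (adjusted p = 0.866). Pcna measured 139, 96.3 and 137 CPM in PBS and 177, 238 and 142 in BP lymph nodes, without overlap, and Tk1 did not overlap either. The median of the 40 genes stayed between 0.29 and 0.89 on leaving out each library. Adipocyte markers summed to 1627, 11940 and 5100 CPM in PBS and 875, 208 and 4503 CPM in BP lymph nodes, and germinal centre B cell markers to 50.9, 40.3 and 44.7 CPM in PBS and 98, 63.9 and 33 in BP lymph nodes. Mitochondrially encoded RNA took 8.79, 28.6 and 11.6% of PBS lymph nodes and 7.64, 5.8 and 8.81% of BP lymph nodes. The part of these in the shift was not tested.

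In tumor, 37 of 40 changes were negative. Ccnb2, a B-type cyclin, measured 17.2, 50.2 and 28.8 CPM in PBS and 4.68, 20.4 and 27.5 CPM in BP tumors, which overlapped, at a log2 change of -0.93 ± 0.64 (adjusted p = 0.816). Cdc20 stood at -0.87 ± 0.62 (adjusted p = 0.816), and the 3 positive changes were Tyms, Mcm7 and Pcna at 0.3, 0.062 and 0.021. Leaving out BP tumor 1 put the median at -0.011, with 20 changes of each sign, and leaving out PBS tumor 2 put it at 0.07, with 21 positive. The other 4 omissions gave -0.56 to -0.9. The direction in tumor therefore rested on these 2 libraries, the first of which held 19.5% mitochondrially encoded RNA.

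Elsewhere the median changes were smaller, although most had the same sign within an organ. Positive changes numbered 38 of 40 in marrow, 37 of 40 in spleen and 27 of 36 in liver. Over all genes these were 7174 of 13969, 7784 of 15195 and 6400 of 12740. Negative changes numbered 29 of 39 in lung (8306 of 15714 over all genes). There all 7 tested G2/M cyclins and kinases were negative, with a median of -0.494, and none was called. In marrow the Ccne2 groups did not overlap, at 65.6, 72.2 and 85.5 CPM in PBS and 94.3, 99.5 and 88.5 CPM in BP mice, with a log2 change of 0.36 ± 0.11 (unadjusted p = 0.00901, adjusted p = 1). In lung Foxm1 measured 3.59, 3.87 and 4.13 CPM in PBS and 1.5, 2.54 and 2.9 in BP mice. Mybl2 measured 2.38, 2.52 and 2.32 CPM in PBS and 1.39, 1.74 and 1.39 in BP mice. Both were without overlap and lower, at log2 changes of -0.75 ± 0.33 and -0.69 ± 0.31 (adjusted p = 1 for each). In liver the log2 change was 0.82 ± 0.68 for Aurkb, -0.60 ± 0.65 for Ube2c and -0.33 ± 0.17 for Tk1, and in spleen the widest change was that of Kif11, a spindle motor, at 0.41 ± 0.57, with adjusted p of 0.999 to 1. A test of each organ's BP change against the mean of the other 5 organs called 0 of the 40 genes in all 6 organs (edgeR, and 0 also with limma and mouse as a correlated block); for tumor, 3.21% of all genes were called higher and 0.854% lower.

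**Figure D3:**
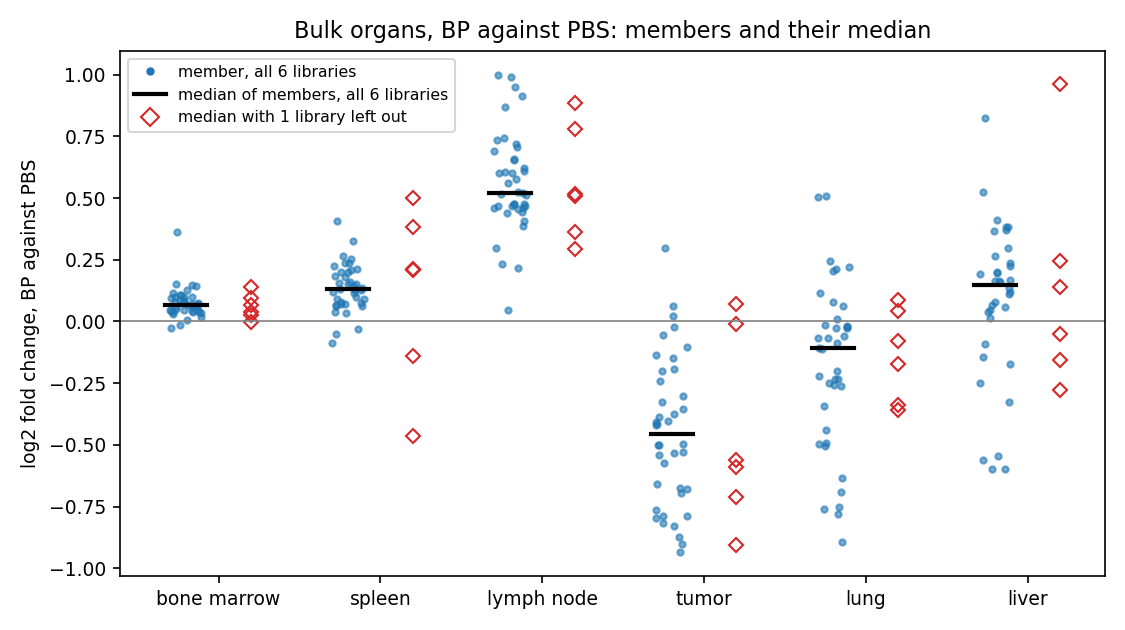
Log2 change of each of the 40 genes, BP over PBS bulk tissue, by organ (points), with the median (bar) and the median after leaving out each library in turn (diamonds). No point passed adjusted p under 0.05; the tumor median of -0.46 moves to -0.011 or 0.07 without BP tumor 1 or PBS tumor 2.

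In marrow, nanoparticle-associated cells held about the summed level of the bulk tissue, and few of the 40 genes were called. The sum was 8871, 10840 and 10050 CPM in nanoparticle-associated cells of BP mice 1, 2 and 3 and 8717, 11000 and 9759 CPM in the marrow they came from. A single gene was called, lower, without the mouse as a block, Plk1 (0 higher and 1 lower of 40, beside 4.8% and 2.9% of all genes). With the mouse as a block 5 were higher and 6 lower (11.7% and 8.29% of all genes), and without mouse 2 that fit called 0 higher and 1 lower. Without overlap of the 2 groups 0 were higher and 7 lower (14.4% and 16.1%). All 5 higher genes were replication or G1/S genes: Mcm3, Mcm7, E2f1, E2f8 and Mybl2. Of these, Mybl2 also drives genes of G2 and mitosis. All 6 lower genes were of mitosis: Plk1, Cenpf, Ccnb1, Kif20a, Bub1b and Aurka. By class, the median blocked change was 0.17 over 17 replication and G1/S genes, of which 14 were positive, and -0.17 over 23 mitotic genes, of which 6 were positive.

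Plk1, the polo kinase of mitotic entry (chr7:122159439-122169873, plus strand), measured 65.3, 80 and 76.8 CPM in nanoparticle-associated and 94.7, 119 and 119.7 CPM in bulk marrow of BP mice 1, 2 and 3. It was lower in all 3 mice and the groups did not overlap. Its log2 change was -0.56 ± 0.13 (adjusted p = 0.0413), and with mouse as a block -0.56 ± 0.066 (adjusted p = 0.00422). The unblocked call was lost, at adjusted p of 0.0577 to 0.15, on leaving out any library but nanoparticle-associated library 1, and in 1 fit of 48 libraries (-0.585, adjusted p = 0.854). Ccnb1, the cyclin of mitotic entry, measured 104, 166 and 148 against 175, 217 and 192 CPM, lower without overlap, at a blocked change of -0.48 ± 0.10 (adjusted p = 0.0228; 0.149 without the block). Cenpf, a kinetochore protein, changed by -0.49 ± 0.067 (adjusted p = 0.00689; 0.0593 without the block) and Kif20a, a motor of cytokinesis, by -0.41 ± 0.067 (adjusted p = 0.0114).

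On the other side, Mcm3 of the replicative helicase measured 281, 349 and 328 CPM in nanoparticle-associated and 220, 286 and 243 CPM in bulk marrow. It was higher in each mouse although the groups overlapped, with a blocked change of 0.38 ± 0.064 (adjusted p = 0.0123; 0.114 without the block). E2f1 measured 64.1, 85.6 and 83.8 against 56.3, 67.8 and 67.8 CPM (blocked 0.30 ± 0.072, adjusted p = 0.0335), again higher in each mouse. Mki67 and Top2a were not called, at 0.20 ± 0.067 (adjusted p = 0.0809) and -0.20 ± 0.056 (adjusted p = 0.0509). The blocked count of 11 was 17 (8 higher, 9 lower) without mouse 1 and 4 (0 and 4) without mouse 3. Erythroid markers summed to 86150, 113900 and 132900 CPM in nanoparticle-associated and 132600, 157600 and 214800 CPM in bulk marrow, and markers of neutrophil precursors to 22470, 20290 and 21070 against 19360, 18030 and 18320 CPM. The part of this makeup in the shift was not tested.

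**Figure D4:**
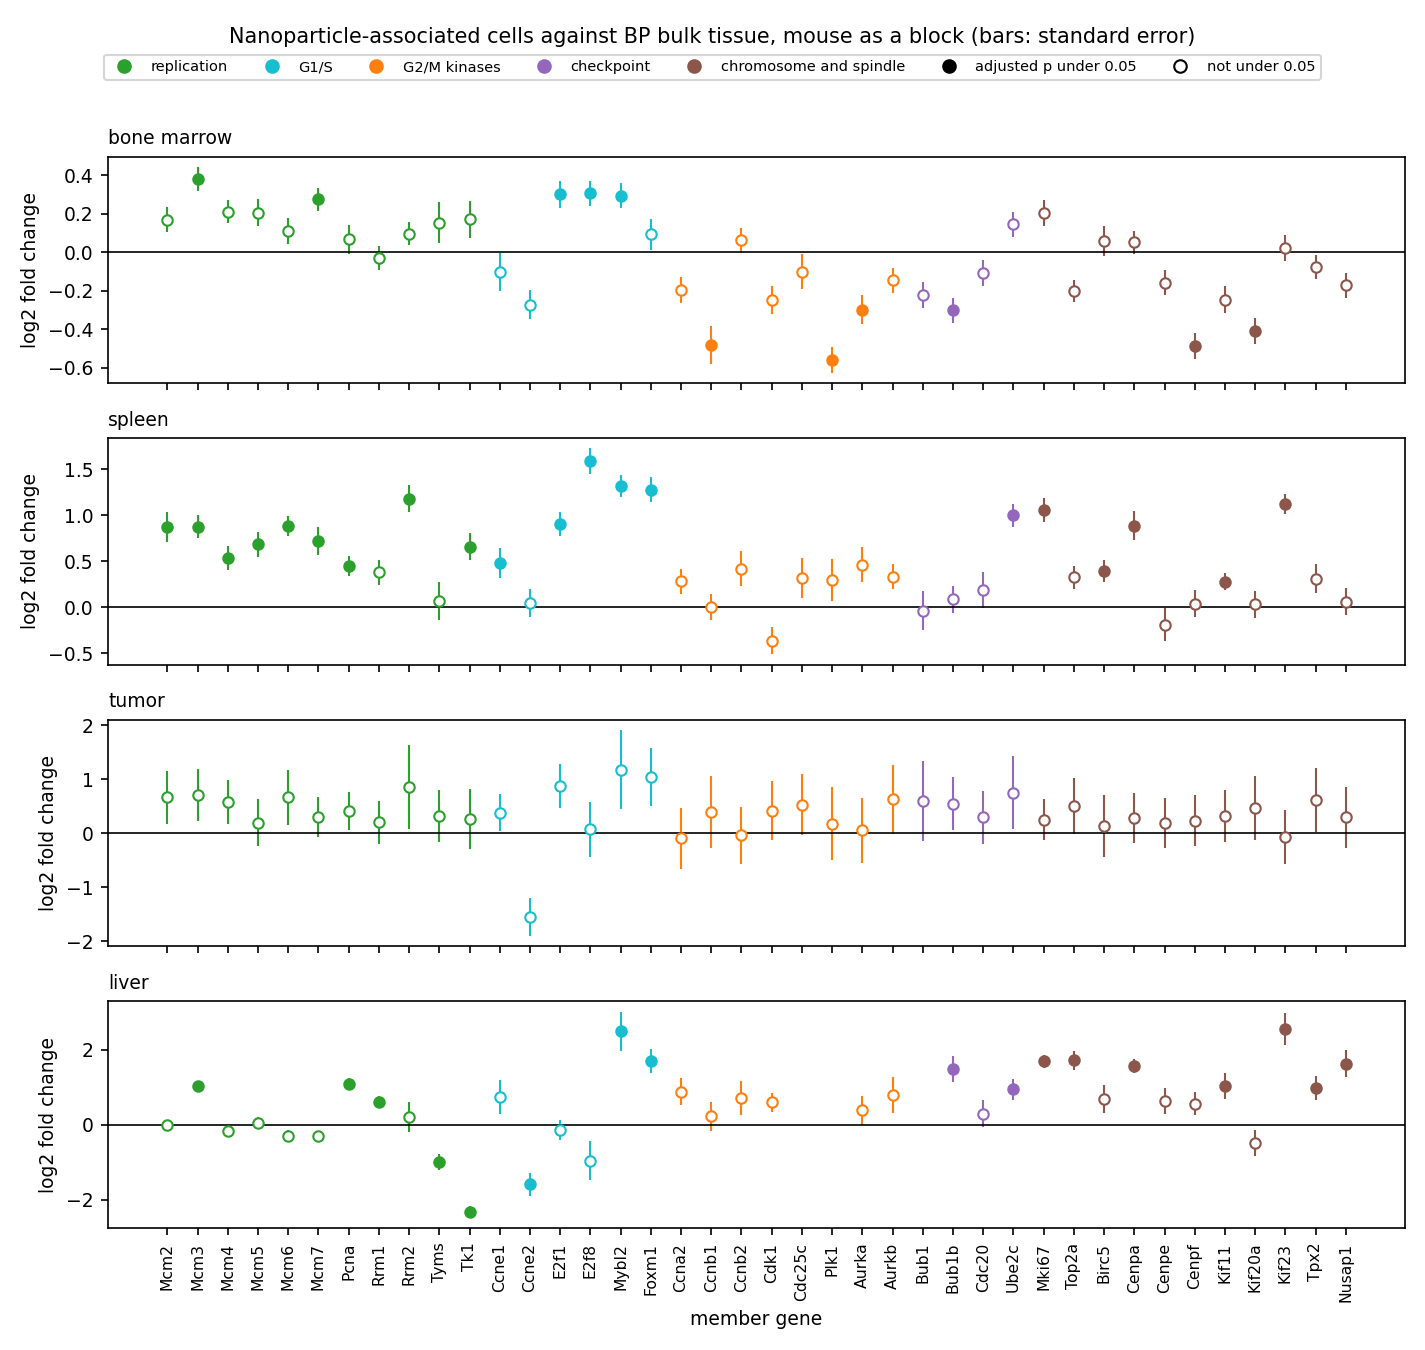
Log2 change ± SE of each of the 40 genes in nanoparticle-associated cells over bulk tissue of the same BP mice, with mouse as a block, in marrow, spleen, tumor and liver; filled points passed adjusted p under 0.05 and colour gives the role. In marrow the 5 filled points above 0 are replication and G1/S genes (Mybl2 included) and the 6 below are mitotic genes. Leaving out 1 mouse moves these counts to 0 to 8 above and 1 to 9 below. In spleen 20 points are filled, all above 0, and in tumor none is. The text gives the shares of all genes called beside these counts.

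In spleen, replication and G1/S genes were higher in nanoparticle-associated cells once each mouse was compared with itself. Without the block 0 of 40 genes were called by edgeR (1 at an unadjusted p under 0.05, and 2 by DESeq2), beside 20.2% of all genes higher and 22% lower. With the block 20 were higher and 0 lower (26.8% and 27.2%), and 23 genes were higher in nanoparticle-associated cells in all 3 mice. The 2 groups overlapped for all 40 genes, whereas 24.9% of all genes were higher and 30.5% lower without overlap. By role the blocked calls were 9 of 11 replication genes, 5 of 6 G1/S genes, 0 of 8 G2/M cyclins and kinases, 1 of 4 checkpoint genes (Ube2c) and 5 of 11 chromosome genes (Mki67, Birc5, Cenpa, Kif11 and Kif23).

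E2f8, Mybl2 and Foxm1 had the widest changes. All are counted here as G1/S genes, although Mybl2 and Foxm1 drive genes of G2 and mitosis. E2f8 measured 27.2, 162 and 102 CPM in nanoparticle-associated and 10.8, 58.8 and 27.4 CPM in bulk spleen of BP mice 1, 2 and 3, and Mybl2 25, 101 and 70.1 against 9.81, 47.2 and 25.1 CPM. In each mouse the nanoparticle-associated value was higher, while mouse 1 was lowest in both and the groups overlapped. The blocked changes were 1.59 ± 0.14 for E2f8 (adjusted p = 0.000203; 0.145 without the block), 1.32 ± 0.12 for Mybl2 (adjusted p = 0.000222) and 1.28 ± 0.14 for Foxm1 (adjusted p = 0.000421; 0.0766 without). Rrm2 measured 72.3, 432 and 294 against 39.5, 203 and 103 CPM, a blocked change of 1.18 ± 0.15 (adjusted p = 0.000833). Kif23, a motor protein of the cleavage furrow (chr9:61915905-61946774, minus strand), measured 24.3, 77.3 and 50.3 against 11.7, 36.6 and 22.1 CPM, a blocked change of 1.12 ± 0.11 (adjusted p = 0.000324). Mki67 rose by 1.06 ± 0.13 (adjusted p = 0.000783).

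Cdk1, the kinase of mitosis, went against this. It measured 19.2, 90.7 and 66.6 CPM in nanoparticle-associated and 31.1, 126 and 67 CPM in bulk spleen, lower in mice 1 and 2 and nearly level in mouse 3. Its blocked change was -0.36 ± 0.15 (adjusted p = 0.0728), which became -0.542 (adjusted p = 0.0122) with library totals and -0.568 (adjusted p = 0.0245) without mouse 3. Cenpe and Bub1 were at -0.19 ± 0.18 and -0.035 ± 0.21, neither called. Erythroid markers in nanoparticle-associated cells were above bulk in mouse 3 and below it in mice 1 and 2, mature B cell markers were lower in all 3 mice (1909, 1392 and 1572 against 3884, 2784 and 3534 CPM), and markers of neutrophil precursors were higher in all 3 (2890, 1694 and 1397 against 1129, 705 and 375 CPM). Their part in the result was not tested.

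Tumor gave no call. edgeR called 0 of 40 genes with and without the mouse as a block (1 at an unadjusted p under 0.05 in each fit) and DESeq2 called 1, beside 5.87% of all genes higher and 3.17% lower without the block and 3.07% and 1.2% with it. Ccne2 measured 2.22, 1.83 and 2.87 CPM in nanoparticle-associated and 5.28, 5.74 and 9.69 CPM in bulk tumor, lower without overlap, at a log2 change of -1.57 ± 0.40 (adjusted p = 0.0557); DESeq2 gave -1.59 (adjusted p = 0.00326). E2f1 measured 21.7, 17.4 and 22.4 against 5.28, 15.7 and 16.1 CPM and Mybl2 18.5, 17.1 and 16.7 against 1.49, 14.8 and 14.6 CPM, both higher without overlap; 2 of the 40 genes were higher and 1 lower without overlap, beside 19.7% and 18.7% of all genes. Their changes were 0.75 ± 0.41 (adjusted p = 0.246) and 0.79 ± 0.69 (adjusted p = 0.468). Adipocyte markers in nanoparticle-associated tumor cells summed to 37, 27.5 and 32.2 CPM, against 9747, 974 and 202 CPM in bulk, and mammary epithelial markers to 15130, 13710 and 13400 CPM.

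In liver, Tk1 and Tyms of nucleotide supply and the cyclin Ccne2 were lower in nanoparticle-associated cells than in bulk tissue, while every chromosome gene that was called was higher. Of 37 genes tested (not Cdc25c, Plk1 and Bub1), 11 were higher and 3 lower, beside 37.3% and 37.5% of all genes. With the block the counts were 14 and 3 (36.7% and 37%). These counts depended on scaling: with library totals and no block 3 were higher and 11 lower, beside 2681 and 6887 of all 13247 genes. Bub1, which was not tested, averaged 2.49 ± 1.31 CPM in nanoparticle-associated and 0.752 ± 0.245 CPM in bulk liver (SD, n = 3). The 2 groups did not overlap for 9 higher and 4 lower of the 37 genes (35% and 43.5% of all genes). By role and with the block, 7 of 11 chromosome genes and 2 of 3 checkpoint genes were higher and none lower, 0 of 6 G2/M cyclins and kinases were called, and the replication genes split into 3 higher and 2 lower.

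Tk1 measured 13.6, 10.4 and 14.1 CPM in nanoparticle-associated and 70.6, 70 and 69.1 CPM in bulk liver of BP mice 1, 2 and 3. The groups were far apart, with a log2 change of -2.31 ± 0.15 (adjusted p = 1.13e-06). Ccne2 measured 2.54, 2.7 and 4.6 against 11.1, 9.94 and 10.6 CPM (-1.58 ± 0.29, adjusted p = 0.000907), and Tyms, the thymidylate synthase, 6.46, 8.26 and 4.85 against 14.1, 16 and 13.3 CPM (-0.98 ± 0.22, adjusted p = 0.00307). All 3 were lower without overlap.

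Kif23 measured 7.22, 7.58 and 8 CPM in nanoparticle-associated and 1.34, 2.39 and 0.646 CPM in bulk liver, without overlap, a change of 2.51 ± 0.41 (adjusted p = 0.000441). Mki67 measured 24.3, 41.8 and 30.3 against 6.73, 15.3 and 11.8 CPM, also without overlap (1.66 ± 0.31, adjusted p = 0.000913). Mybl2 was called higher (adjusted p = 0.00626), from 1, 9 and 4 counts in bulk and 14, 21 and 14 counts in nanoparticle-associated libraries of mice 1, 2 and 3. Tk1, Ccne2, Tyms, Kif23, Mki67 and Mybl2 kept direction and call in every alternative run. Pcna measured 155, 209 and 149 against 83, 89.6 and 91.2 CPM and was called higher at 1.11 ± 0.15 (adjusted p = 0.000112), but at 0.263 (adjusted p = 0.425) with library totals.

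Scaling decided part of the liver count. Library totals, which shifted the median of all genes by -0.811, gave 3 genes higher and 11 lower. Of all 13247 genes tested, 2681 were then higher and 6887 lower. Under them Mcm3 went from 1.02 ± 0.15 (adjusted p = 0.000185) to 0.218 (adjusted p = 0.533), Foxm1 from 1.68 ± 0.30 to 0.861 (adjusted p = 0.0758), Top2a from 1.61 ± 0.43 to 0.724 (adjusted p = 0.0514) and Cenpa, the centromere histone, from 1.52 ± 0.27 to 0.665 (adjusted p = 0.0529). Rrm1 went from 0.63 ± 0.17 (adjusted p = 0.00698) to -0.214 (adjusted p = 0.545). Without bulk liver 2 the count was 19 higher and 3 lower. Hepatocyte markers summed to 20610, 66890 and 40720 CPM in nanoparticle-associated and 132400, 127300 and 161700 CPM in bulk liver, endothelial markers to 3295, 2366 and 3174 against 213, 230 and 172 CPM and macrophage markers to 3212, 1298 and 1386 against 1434, 1733 and 1251 CPM. Their part in the result was not tested.

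The organs were compared with each other by a test of each organ's change against the mean of the other 3. Of the 40 genes it called 0 in marrow, spleen and tumor (0, 3 and 1 at an unadjusted p under 0.05). In liver it called Tk1 lower, by -2.66 ± 0.54 (adjusted p = 0.000362), and Kif23 higher, by 2.13 ± 0.66 (adjusted p = 0.00966), where 24.3% and 29.4% of all genes were called lower and higher. Kif23 missed the threshold with library totals (1.48, adjusted p = 0.0572) and without replicate 3 (1.62, adjusted p = 0.162).

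The single nanoparticle-associated lymph node library, from BP mouse 2, allows no test. It lay above all 3 BP bulk lymph nodes for 9 of 40 genes (22.5%) and below all 3 for 16 (40%), beside 29.7% and 41.3% of all genes. Of the replication and G1/S genes, 7 of 17 were above and 1 below, and of the 8 G2/M cyclins and kinases 0 were above and 6 below. Against the bulk lymph node of its own mouse it was higher for 11 of 40 genes, beside 6842 of all 14434 genes. By role these were 4 of 11 replication, 5 of 6 G1/S and 2 of 11 chromosome genes. Kif23 stood at 57.2 CPM against 11.6, 13.8 and 6.14 CPM in bulk, Cenpa at 116 against 35.4, 38.1 and 21.3, and Pcna at 377 against 177, 238 and 142. Plk1 stood at 2.51 CPM against 10.1, 13 and 5.85 and Cenpf at 2.25 against 17, 13.9 and 9.81.

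Other genes of the cycle were followed by 4 further lists. BP against PBS called 0 of each list in every organ. In nanoparticle-associated cells, Cdkn1a and Btg1 were higher in all 4 organs tested. Cdkn1a (p21), the inhibitor of cyclin-dependent kinases, was higher by 2.68 ± 0.17 in marrow (adjusted p = 0.000148), 3.78 ± 0.30 in spleen (adjusted p = 0.000454), 2.63 ± 0.60 in tumor (adjusted p = 0.0435) and 5.46 ± 0.19 in liver (adjusted p = 1.53e-07); the tumor call was lost with the block (adjusted p = 0.0543) and with library totals (adjusted p = 0.0615). Btg1, an antiproliferative gene, was higher by 1.09 ± 0.13, 1.59 ± 0.15, 1.33 ± 0.22 and 2.60 ± 0.25 (adjusted p = 0.00309, 0.000671, 0.0235 and 1.56e-05). In all, 2 of 12 inhibitor genes were higher and 0 lower in marrow (4.8% and 2.9% of all genes), 3 of 14 higher and 2 lower in spleen (20.2% and 22%), 3 of 14 higher and 1 lower in tumor (5.87% and 3.17%) and 10 of 13 higher and 1 lower in liver (37.3% and 37.5%).

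Among G1 cyclins and kinases, Myc, which drives growth and G1 entry, was higher by 3.16 ± 0.17 in spleen (adjusted p = 0.000173), 1.32 ± 0.21 in tumor (adjusted p = 0.0224) and 3.12 ± 0.28 in liver (adjusted p = 8.2e-06), while Ccnd1 (cyclin D1) was lower in spleen by -1.07 ± 0.20 (adjusted p = 0.00655) and liver by -1.50 ± 0.16 (adjusted p = 3.02e-05). Of the 20 genes of origin licensing and replication, Cdt1, the loader of the helicase, was called higher in marrow at 0.73 ± 0.18 (adjusted p = 0.0452) and in spleen at 1.67 ± 0.36 (adjusted p = 0.0108), and with the block 5 and 11 of the 20 were higher and none lower, where 11.7% and 26.8% of all genes were higher. Of 32 further genes of mitosis, 0 were higher and 1 lower in marrow, Anln, an actin-binding protein of the cleavage furrow, at -0.60 ± 0.13 (adjusted p = 0.0307), and with the block 0 were higher and 6 lower (11.7% and 8.29% of all genes). In liver 4 of 18 licensing genes were higher and 4 lower, beside 37.3% and 37.5% of all genes, among them Mcm10 at -3.41 ± 0.25 (adjusted p = 2.71e-06). Of 25 mitosis genes in liver 11 were higher and 5 lower, beside the same shares of all genes, with Incenp, a partner of Birc5, at 2.72 ± 0.20 (adjusted p = 2.6e-06) and Spc24, a kinetochore protein, at -2.30 ± 0.48 (adjusted p = 0.00188).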

How the data were processed

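The authors deposited 1 table of expected counts (RSEM estimates per gene) for the 49 libraries. The submitters' processing notes name FastQC 0.11.9, cutadapt 3.5, STAR 2.7.9a and RSEM 1.3.1 with build mm10; annotation release, settings and strand are not given in the sources used here. Ambiguous reads are shared out by estimation, so 4.64 to 7.92% of values per library were not whole.

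Rounded counts went into edgeR 4.0.16 under R 4.3.3: TMM scaling, filterByExpr (minimum count 10), a two-sided quasi-likelihood F-test and Benjamini-Hochberg adjustment over all genes tested, with calls at adjusted p under 0.05; this step was tested on simulated data. Treatment and fraction comparisons were fitted per organ on 6 libraries, PBS organs in 1 fit of 18, and organ differences in fits of all bulk or all 24 BP libraries of 4 organs. Printed CPM use 1 TMM scaling over 49 libraries; fold changes use each comparison's own fit. Alternatives were DESeq2 1.42.0, limma 3.58.1, other scalings, no filter, a mouse block and each replicate left out.

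The labels tie same-numbered BP fractions, and the organs of a PBS mouse, to 1 animal. Deviations of fraction pairs correlated at -0.203 to 0.602 (median 0.0614, 12 pairs), and of PBS organs at -0.059 to 0.496 (median 0.0658, 45 pairs). Replicates were separate mice, and no 2 libraries agreed within sampling noise. Floors are 3 counts and cover counting error only. The 40 genes, roles and lists were chosen with earlier results of these data known. All 40 genes are named in the opening; values are printed for 10 chosen anchors, for up to 5 genes per direction with the widest change among those called (or tested, where none was), for up to 3 going against the majority, and for up to 3 per further list, and some further genes were chosen after their values were seen. Gene positions come from GENCODE on GRCm38.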

Additional observations from a re-analysis of the deposited data

Results flagged for a closer look

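In nanoparticle-associated cells against bulk tissue, 2 of the 40 genes differed between organs by a test of the difference itself, both in liver. In that liver test 5073 of all 17281 genes were called higher and 4199 lower. Tk1 was lower in liver than over the mean of marrow, spleen and tumor by -2.66 ± 0.54 on the log2 scale (-2.66; SE, adjusted p = 0.000362, edgeR), with 13.6, 10.4 and 14.1 CPM in nanoparticle-associated and 70.6, 70 and 69.1 CPM in bulk liver. Kif23 was higher by 2.13 ± 0.66 (2.13; adjusted p = 0.00966, edgeR), with 7.22, 7.58 and 8 and 1.34, 2.39 and 0.646 CPM. The call of Kif23 was lost with library totals and without replicate 3. Hepatocyte markers were lower in each of these nanoparticle-associated liver libraries than in every bulk liver; their part was not tested.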

How the results depend on the processing

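Over the counts of called genes, 295 of 346 alternatives stayed within 1.5 times the reported count and direction; over single genes and medians, 1732 of 1976 kept their direction and their side of the threshold or lay within their error. With mouse as a block (replicate block), nanoparticle-associated cells gave 11 of the 40 genes in marrow instead of 1 (10 with library totals, 12 without mitochondrial genes; 17 without mouse 1 and 4 without mouse 3) and 20 in spleen instead of 0 (17 with library totals, 18 without mitochondrial genes; 25, 16 and 15 without mouse 1, 2 and 3). The blocked fits with other scalings or fewer mice were chosen after seeing the data. Of the organ differences, the block gave 1 in spleen, 1 in tumor and 4 in liver. It changed no count of BP against PBS calls, where equal numbers are different animals: their deviations correlated at -0.244 to 0.449 (median 0.01485, 18 pairs). No filter gave 2 in marrow and 1 in spleen, 1 fit of 48 libraries gave 0 in marrow, 4 in spleen and 1 in tumor, and DESeq2 gave 2, 2 and 1 (organ differences: 2 in spleen, 1 in tumor). For these fits and the blocked organ differences, the share of all genes called is not given here. Their counts are therefore not read as particular to the 40 genes.

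Library totals turned nanoparticle-associated liver to 14 (3 higher, 11 lower, and 16 with the block). There, without the block, 2681 of all 13247 genes were higher and 6887 lower. Lung against liver turned to 18 (16 higher, 2 lower) and lymph node against liver to 31. Of all 17696 genes, 10966 were then higher and 1934 lower in lung, and 10090 higher and 2191 lower in lymph node. Library totals put the liver difference at 8, where 3201 of all 17281 genes were higher and 6206 lower. They reversed Rrm1 in nanoparticle-associated liver (-0.214; -0.231 with the block) and Tk1 in spleen (0.501) and tumor (0.157) against liver. Leaving out 1 library or mouse gave 0 to 3 in marrow (3, with 2 higher, without nanoparticle-associated library 1), 0 to 5 in spleen and 12 to 22 in liver. The PBS pairs ran from 21 to 25 (marrow, spleen), 14 to 35 (spleen, lymph node), 3 to 10 (spleen, tumor), 7 to 33 (lymph node, tumor), 4 to 13 (lymph node, lung), 13 to 25 (lymph node, liver) and 5 to 9 (lung, liver; 8 without mouse 3, with 6 higher). Organ differences ran from 0 to 1 in spleen, 0 to 1 in tumor and 1 to 9 in liver. The cause was not tested.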

Other observations

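The order of the mice over the 40 genes was close to uniform in some further groups and not in others. In PBS lymph node mouse 2 was lowest for 39 genes, with a median ratio of highest to lowest of 2.51, and in BP lymph node mouse 3 was lowest for 38 (29% of all genes), with a ratio of 2.01. Nanoparticle-associated tumor cells were lowest in mouse 2 for 37 genes (42.6% of all genes), with a ratio of 1.71, against 5.66 in BP bulk tumor. In BP bulk liver the lowest was mouse 1, 2 or 3 for 26, 5 and 9 genes, and in nanoparticle-associated marrow the highest was mouse 1, 2 or 3 for 1, 23 and 16 genes. The replication genes made up 47.1% of the summed level in nanoparticle-associated tumor cells and 46.1% in BP bulk tumor, and 65.7% in nanoparticle-associated and 75.1% in BP bulk liver.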
